A study of Mus musculus with 40 samples.

Results

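The comparison described here set cecal contents of mice fed 1% broccoli powder against those of mice fed the plain diet, read through the RNA of 6 gut bacteria. It covered 20 of the 40 libraries of the study: 10 labelled 1% broccoli and 10 labelled 0%. Libraries were assigned to the diets by the treatment label, and the comparison itself was chosen with earlier results of these data known. All mice were C57BL/6 and began the Total Western Diet, a rodent diet built to resemble human Western intake, when they were 3 weeks old. After 6 weeks on it, the 0% group stayed on the plain diet and the 1% group received it with 1% broccoli powder for 3 more weeks. The labels name no cage for a library, so libraries may share surroundings. The p-values set a difference against the variation between libraries and take the libraries as independent, which could not be checked. No gene in the tables checks the diet label itself.

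RNA from the gut contents was counted in 6 separate tables, 1 per bacterial genome. They are named here as deposited: F. rodentium, L.bacterium335, Acetatifactor, D. muris, X. muris and Alistipes. The cecum is the fermentation chamber of the mouse gut. Its bacteria break down plant polysaccharides, such as pectin and arabinan from vegetable cell walls, that the host cannot digest, and release short-chain fatty acids. A count on a genome depends on how many of its cells are present and on how much each transcribes, and fewer cells and less RNA per cell cannot be told apart in these data.

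Counts over the 6 tables ran from 306275 to 1902264 per library at 0% and from 253365 to 1422812 at 1%, with medians of 661901 and 698377. Tests of single genes used libraries with at least 10000 counts on the genome concerned. That left all 10 against 10 libraries for F. rodentium, L.bacterium335 and Acetatifactor, 9 at 0% against 10 at 1% for D. muris (0% replicate 5 left out), and 7 against 10 for X. muris (0% replicates 4, 5 and 10 left out). Alistipes reached the minimum in no library of either diet and is given as counts only.

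F. rodentium held most counts at 0% and a widely varying part of them at 1%. Its share of the counts over the 6 tables was 77.9, 38.6, 78.7, 44.6, 67.7, 76.2, 88.3, 93.0, 77.1 and 86.3% in 0% replicates 1 to 10. In 1% replicates 1 to 10 it was 43.2, 66.9, 30.5, 7.14, 3.48, 84.4, 13.1, 68.2, 65.3 and 79.1%. Replicates 3, 4, 5 and 7 of the 1% diet lay below every 0% library, and replicates 6 and 10 above the 0% mean. The means were 72.8% ± 17.99 (SD, n = 10) at 0% and 46.1% ± 30.8 (SD, n = 10) at 1%. The difference of -26.7 percentage points had a two-sided permutation p of 0.0308, and of 0.0555 after adjustment over 18 comparisons of shares, so it missed the threshold of 0.05.

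**Figure D1:**
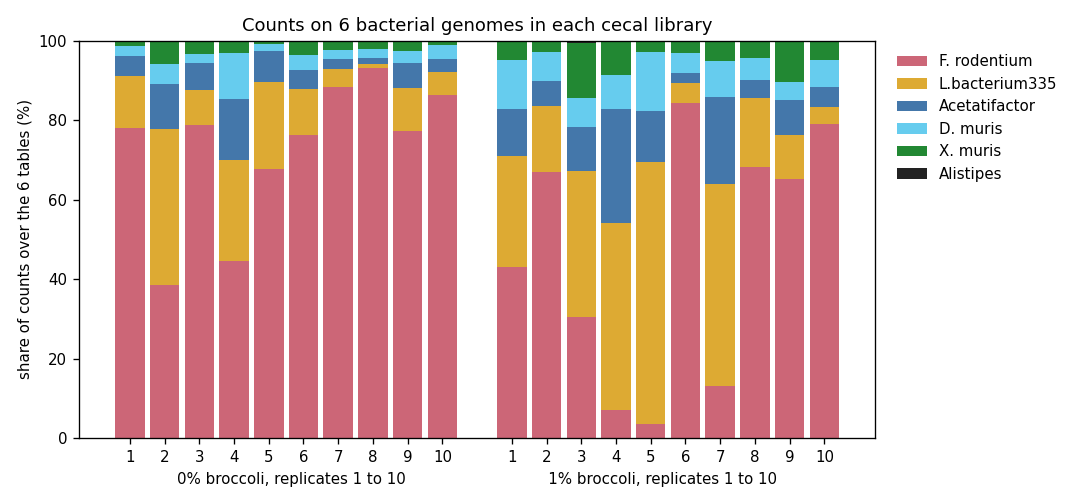
Share of counts (percent, vertical axis) on each of 6 bacterial genomes in each of the 20 libraries (bars, replicates 1 to 10 of each diet). The F. rodentium part runs from 38.6 to 93.0% at 0% and from 3.48 to 84.4% at 1%.

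The spread of that share between libraries was measured as the mean absolute deviation from the group's median. It was 11.99 percentage points at 0% and 26.6 at 1%, and the whole range was 54.4 points at 0% and 80.9 at 1%. Against 0%, the difference in spread had a permutation p of 0.0386 and of 0.109 adjusted over the 6 genomes, so it missed the threshold. Against the other doses the spread at 1% was larger: 9.86 points at 0.5% (adjusted permutation p = 0.00664) and 8.05 points at 2.5% (adjusted permutation p = 0.00454). Those 2 tests were added after the spread at 1% was known and are no independent support for it. At 2.5% the shares lay near 0, with a median of 6.32%, which limits a spread in percentage points. No other scale was tried for these 2 tests, so their direction is given for percentage points only. The 1% shares did not fall into separate clusters by the criterion used, since their widest gap, from 43.2 to 65.3%, was 22.1 points, under the 40.4 points set as the criterion, which are 0.5 of the width of their range. Of the 1% libraries, replicates 3, 4, 5 and 7 lay within the range of the 2.5% diet, which ran from 0.0194 to 31.6%, and the other 6 within the range of the 0% diet.

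**Figure D2:**
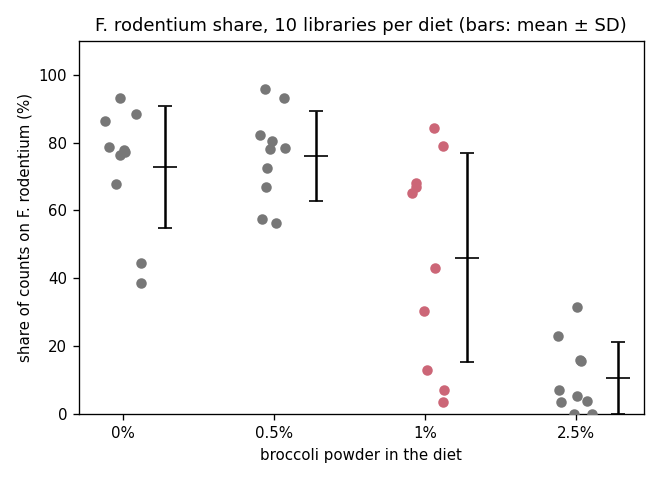
Share of counts on F. rodentium (percent, vertical axis) in 10 libraries at each dose of broccoli powder (horizontal axis), with mean ± SD beside the points. The 1% libraries spread from 3.48 to 84.4%, with an SD of 30.8 percentage points against 13.2 at 0.5% and 10.6 at 2.5%. At 2.5% the shares lie near 0, which limits their SD in percentage points.

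D. muris and X. muris took larger shares at 1%. D. muris rose from 3.80% ± 2.93 (SD, n = 10) to 8.14% ± 3.32 (SD, n = 10), with 10 of 10 libraries above the 0% mean (adjusted permutation p = 0.0159). X. muris rose from 2.64% to 5.99%, with 9 of 10 libraries above the 0% mean (adjusted permutation p = 0.0175). L.bacterium335 averaged 14.3% at 0% and 28.2% at 1%, but its 1% libraries ran from 4.22 to 66.01% and the difference missed the threshold (adjusted permutation p = 0.135). Acetatifactor averaged 6.44 and 11.4% and missed it too (adjusted permutation p = 0.169). With the shares as centred log-ratios, in which each genome is set against the mean of all 6, the D. muris and X. muris differences no longer passed and that of Acetatifactor changed sign, while F. rodentium fell by 2.10 log units (adjusted permutation p = 0.0161).

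Alistipes, the rarest of the 6, held 51 to 336 counts per library at 0% and 338 to 3479 at 1%. Its share rose from 0.0240 to 0.170%, with 10 of 10 libraries above the 0% mean and 8 above every 0% library (adjusted permutation p = 0.00063). The library with the largest share was 1% replicate 3, at 0.555%. Its share also varied more between the 1% libraries than at 0% (adjusted permutation p = 0.0137). On a logit scale the difference in spread had an adjusted permutation p of 0.847. Among genes with a symbol, btuB_2, for a vitamin B12 receptor of the outer membrane, had 2 counts over the 0% libraries and 107 over the 1% libraries. The translation factor gene tufA had 12 and 98. The ribosomal protein gene rpsA, with 104 and 102 counts, and pckA, for phosphoenolpyruvate carboxykinase, with 100 and 93, had nearly the same number in both diets. The 5 features most counted at 0% summed to 574 and 419 counts, and all other features to 1046 and 11427.

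In the larger tables other than F. rodentium, counts also rose more on the other features than on the 5 most counted at 0%. Those 5 were chosen by their counts at 0% alone, which by itself favours such a division. In L.bacterium335, the 5 features most counted at 0%, none of which has a symbol, held 576975 counts over the 0% libraries and 526578 over the 1% libraries, and the other features 180233 and 1409135. In Acetatifactor the 5 held 200175 and 179717 counts and the rest 165304 and 588140. In D. muris they held 26854 and 30896 and the rest 219785 and 567006. In X. muris they held 164008 and 265827 and the rest 29873 and 186109. In D. muris and X. muris the 5 thus rose as well, unlike in Alistipes. F. rodentium differed from these, with 1018716 and 681049 on its 5 and 5563848 and 3635123 on the rest. The 10 libraries of each diet summed to 8147391 counts at 0% and 8081426 at 1% over the 6 tables.

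Counts on 4 genomes were less concentrated at 1%, with the 5 most counted features taken anew in each library. The percent of a genome's counts on the 5 most counted features of the library had a median of 76.8% at 0% and 39.9% at 1% in L.bacterium335 (adjusted permutation p = 0.000183), 56.8 and 38.1% in Acetatifactor (0.000183), 11.4 and 6.83% in D. muris (0.000183) and 91.2 and 65.2% in X. muris (0.003). It was 15.6 and 17.1% in F. rodentium (0.103). A single X. muris feature without a symbol, HPS56_RS12595, took 61.5 to 94.9% of that genome's counts in the 7 libraries at 0% and 42.7 to 83.3% in the 10 at 1%. With the 5 most counted features of each genome at 0% left out, all 6 shares differed between the diets: L.bacterium335 rose from 5.06 to 25.6% (adjusted permutation p = 0.0152), Acetatifactor from 4.30 to 11.2% (0.0287), and F. rodentium fell from 85.1 to 50.0% (0.00855). Those 5 were chosen by their counts in the 0% libraries alone, so leaving them out removes what is high at 0% by selection. These differences are therefore no independent support.

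More features of these 4 genomes were detected at 1%. Each library that reached the minimum was thinned to 10000 counts on the genome, and features with at least 1 count were numbered. This makes the total on a genome equal, but not the counts left for features other than the most counted. L.bacterium335 had 306 to 473 such features at 0% (median 372) and 658 to 1710 at 1% (median 1398), with no overlap (adjusted permutation p = 5e-05). Acetatifactor had 386 to 1007 at 0% and 1048 to 1641 at 1%, also with no overlap (adjusted permutation p = 5e-05). D. muris had means of 1256 and 1365, with 9 of 10 1% libraries above every 0% library (adjusted permutation p = 0.000117). X. muris had means of 513 and 974, with 4 of 10 above (adjusted permutation p = 0.004). F. rodentium had means of 1123 and 1121 (adjusted permutation p = 0.933). With the 5 most counted features of each library left out and the rest thinned to 5000 counts, an alternative added after seeing the data, L.bacterium335 had 422 to 523 features at 0% and 822 to 1391 at 1% (adjusted permutation p = 4e-05), and Acetatifactor 415 to 966 and 1033 to 1398 (adjusted permutation p = 4e-05). D. muris then had means of 1057 and 1120 (adjusted permutation p = 0.00155) and F. rodentium of 932 and 933 (adjusted permutation p = 0.943). X. muris had too few libraries with that many counts for a value.

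**Figure D3:**
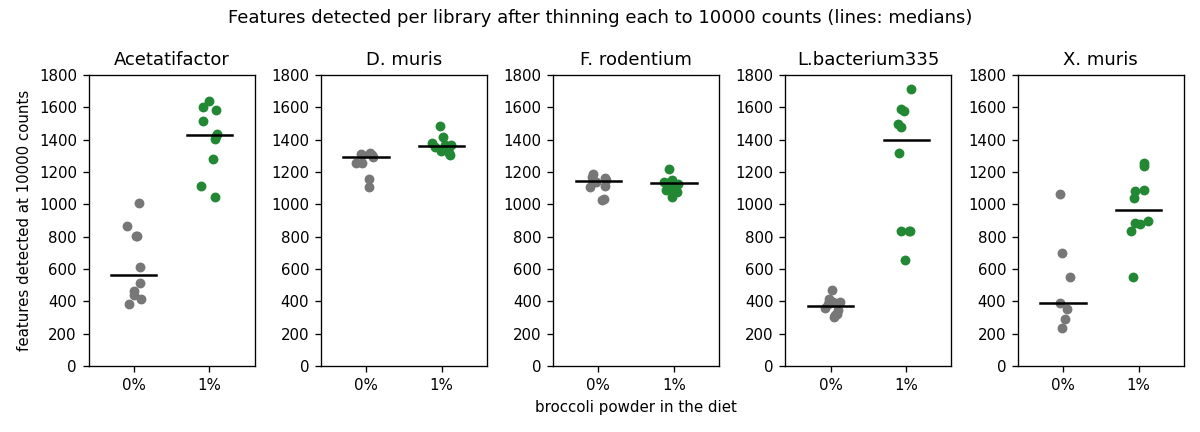
Features with at least 1 count after each library with the minimum depth was thinned to 10000 counts on a genome (vertical axis), by genome and diet. Points are libraries and lines medians. In L.bacterium335 and Acetatifactor all 10 libraries at 1% lie above all 10 at 0%, and in F. rodentium the diets overlap.

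L.bacterium335 showed the widest contrast. Of its 4661 features, 3483 had no count in any 0% library. Of these, 2021 were counted in at least 5 of the 1% libraries and 249 in all 10. They held 6.72 to 39.9% of the L.bacterium335 counts of a 1% library (median 25.0%), lowest in replicate 9 and highest in replicate 8. Over the 1% libraries, the number of L.bacterium335 features at 10000 counts on the genome was set against the F. rodentium share (Pearson r = -0.75, permutation p = 0.02; Spearman rho = -0.68, permutation p = 0.0352, n = 10). Adjusted over the 7 relations computed, the permutation p was 0.0613 for r and 0.0928 for rho, and r was -0.60 without the 2 libraries farthest from the median share, so the relation missed the threshold. The counts left outside the 5 most counted features differed between these libraries too, since those 5 held 20.9 to 69.8% of the genome's counts.

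Single genes were compared with edgeR's quasi-likelihood test on raw counts, with Benjamini-Hochberg adjustment within each genome and a threshold of 0.05. The SE given with a log2 fold change or slope is its absolute value divided by the square root of the test's F statistic. It restates the p-value and is not a separate estimate of spread. Levels are given as CPM, counts scaled to a common total on the same genome by edgeR's TMM factors, so that a value compares a gene with the rest of its own genome. In L.bacterium335, 1085 of 1384 tested features were higher at 1% and 21 lower, which is 78.4% and 1.52% of those tested (79.9% in all). In Acetatifactor, 383 of 773 were higher and 141 lower (49.5% and 18.2%, 67.8% in all). In D. muris, 28 of 1108 were higher and 41 lower (2.53% and 3.7%, 6.23% in all). In X. muris, 36 of 670 were higher and 8 lower (5.37% and 1.19%, 6.57% in all). In F. rodentium, 8 of 1689 were higher and 0 lower (0.474% in all), with 144 at an unadjusted p under 0.05 and 22 calls by DESeq2.

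**Figure D4:**
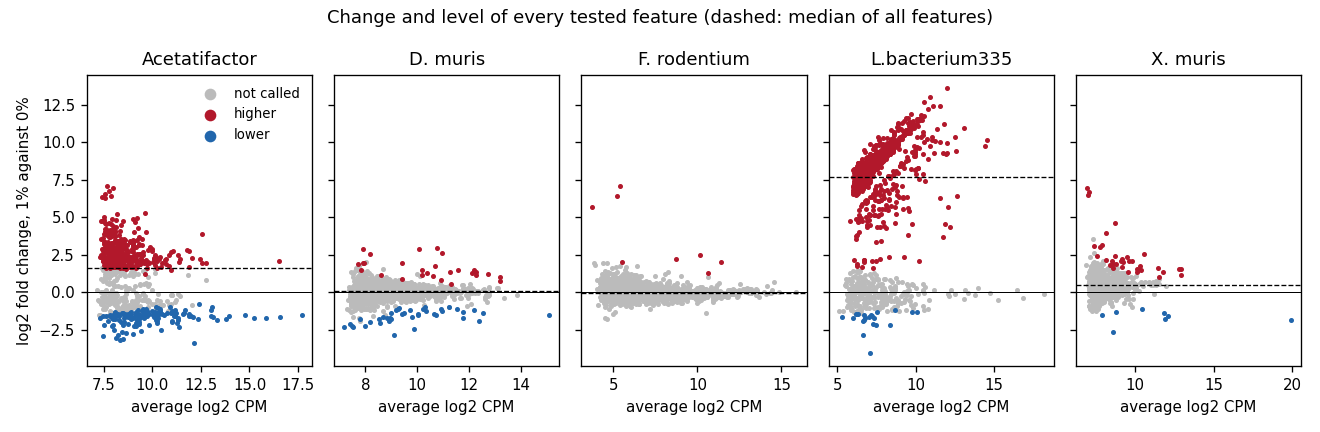
Log2 fold change at 1% against 0% (vertical axis) and average log2 CPM (horizontal axis) of every tested feature of 5 genomes. Features called higher are red and those called lower blue. The dashed median lies at 7.68 in L.bacterium335, 1.58 in Acetatifactor, 0.46 in X. muris, 0.06 in D. muris and -0.04 in F. rodentium.

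The scaling bears on how these counts read. The median log2 fold change over all tested features was 7.68 in L.bacterium335 and 1.58 in Acetatifactor. With DESeq2-style size factors (RLE) the median was 7.21 in L.bacterium335, with 1099 features higher and 8 lower. In Acetatifactor it was 3.00, with 479 higher and 8 lower, so the share of higher calls moved from 73.1 to 98.4%. When the fit held only the 0% and 1% libraries, fewer features passed the filter on low counts: 258 in L.bacterium335 (85 higher, 22 lower) and 311 in Acetatifactor (93 higher, 24 lower). The medians of those features were 0.02 and 0.14, so the medians given above rest on features that passed the filter through the libraries with broccoli. List medians set beside them below rest on such features too, as do the numbers and percentages of features called. They are a description of the tested features, not of all members of a list.

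In L.bacterium335, most tested genes for taking up and fermenting sugars, building flagella, storing glycogen and making protein were called higher at 1%. Of the 1085 features called higher, 903 had no count at 0%, where the 10 libraries held 757208 counts on the genome. Those 903 passed the filter on low counts only through libraries with broccoli, so they could be called higher or not at all. With the 0% and 1% libraries alone, 2 flagella and chemotaxis, 2 glycogen and 3 ribosomal protein genes were tested, and all were called higher. Every 1% library lay above every 0% library in 303 of the 1085, counted among called features only. The share over all tested features was not computed. For a feature with no count at 0%, this needs only a count in each 1% library. A 0% library had counts on 30 to 65 of the 1085, with a median of 39.5, and a 1% library on 567 to 1085, with a median of 1072. For a gene with no count at 0%, a fold is given as a lower bound against 3 counts over the whole 0% group, and fitted values of such genes depend on the prior count. The median bound over the 903 was 43.6-fold.

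Sugar uptake genes were among them. mglB_1, for a galactose-binding protein of an ABC transporter, stood at 0, 12.9 and 186 CPM (lowest, median and highest library) at 0% and at 18883, 26941 and 66588 at 1%. No 0% library came near any 1% library, and the log2 fold change was 9.74 ± 0.84 (SE; edgeR adjusted p = 1.07e-16). All 21 tested genes of the sugar and peptide ABC transport list rose, with a median log2 fold change of 9.40 against 7.68 over all features. Of the 21, 18 had no count at 0% and could be called higher or not at all. lacF_1, whose symbol is used for a sugar permease and for a phosphotransferase protein, had 0 counts at 0% and 533 to 4293 CPM at 1%, at least 293-fold higher.

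Genes for plant cell-wall sugars moved with them. The 10 tested genes for pectin and uronate breakdown all rose, with a median of 9.78. Among them, uxaC, for uronate isomerase, had 0 counts at 0% and 332 to 3178 CPM at 1%, at least 192-fold higher. kduD_1, for a dehydrogenase late in pectin breakdown, had 2 counts in 1 library at 0% and 482 to 2607 CPM at 1% (log2 fold change 8.80 ± 0.87 SE; edgeR adjusted p = 6.48e-15). Of 13 tested genes for arabinose, galactan, rhamnose, fucose and xylose use, 12 rose, with a median of 8.95. araA, for arabinose isomerase, and araQ_1, for an arabinose-oligosaccharide permease, both had 0 counts at 0%. At 1% araA stood at 151 to 2147 CPM, at least 138-fold higher, and araQ_1 at 60.0 to 2140 CPM, at least 342-fold higher. These list counts stand against a genome in which 78.4% of features were called higher. Of the 10 pectin genes 7, and of the 13 others 11, had no count at 0% and could be called higher or not at all.

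Tested genes for motility and central metabolism were also called higher. All 30 tested flagella and chemotaxis genes rose (median 8.46), in a genome with 78.4% of tested features called higher, which holds for each list count that follows. Of these 30 genes 23, and of the 9 fermentation genes below 7, had no count at 0% and could be called higher or not at all. fliD, for the cap of the flagellar filament, was at 0, 0 and 82.4 CPM at 0% and 346, 6192 and 8965 at 1% (log2 fold change 9.21 ± 0.89 SE; edgeR adjusted p = 3.41e-15). fliS, for the flagellin chaperone, had 1 count at 0% and was counted in 9 of 10 libraries at 1%, up to 2362 CPM. All 9 fermentation genes rose: pflB_1, for pyruvate formate-lyase, was at 0, 53.7 and 659 CPM at 0% and 5640, 7968 and 15420 at 1% (log2 fold change 6.43 ± 0.71 SE; edgeR adjusted p = 4.14e-13). pckA was at 10.5, 62.4 and 575 CPM at 0% and 4648, 6196 and 7167 at 1%, a narrow band among the 1% libraries (log2 fold change 5.68 ± 0.65 SE; edgeR adjusted p = 1.35e-12). It had counts in all 10 of the 0% libraries.

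The 12 glycogen genes rose without exception (median 9.03), and glgD and glgC_1, both for ADP-glucose synthesis, had 0 counts at 0% and bounds of 524-fold and 479-fold. So did all 12 glycolysis genes, among them fba, for fructose-bisphosphate aldolase (0 counts at 0%, at least 135-fold higher). Of the 18 chaperone and protease genes all rose. The chaperone gene dnaK went from 1 count in 1 library to 1840 to 4228 CPM. mraZ, the first gene of a cell division and cell wall cluster, likewise went from 1 count to 1248 to 4678 CPM, and all 26 cell wall and division genes rose. Of the 33 ribosomal protein genes 29 rose, or 87.9% beside 78.4% of all features (median 6.37), and rpoB, for RNA polymerase, had 0 counts at 0% and a bound of 318-fold. The 5 tested sporulation genes rose, spoIVA, for assembly of the spore coat, from 0 counts at 0% with a bound of 67.8-fold. Members with no count at 0% could be called higher or not at all. They were 7 of the 12 glycogen, 9 of the 12 glycolysis and 15 of the 18 chaperone and protease genes. They were also 25 of the 26 cell wall and division, 16 of the 33 ribosomal protein and all 5 sporulation genes.

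Genes of mobile elements had few calls in L.bacterium335. Of 9 tested genes for tetracycline resistance and mobile elements, 3 rose and 6 were not called, with a median log2 fold change of 0.12 against 7.68 over all features (0.03 against 7.21 with RLE factors). The 3 were all named for site-specific recombinases, which also separate joined chromosomes: xerD_1 (0 counts at 0%, at least 627-fold higher), xerC_10 (at least 94.8-fold) and xerD_3, the last named after its values were seen. Of the 9, 3 had no count at 0%, as against 903 of all 1384 features. With the 0% and 1% libraries alone, 7 of the list were tested and 1 rose, with a median of -0.40 beside 0.02 over all features. The two-component list held 22 calls of 37, or 59.5%. srrA_1, for a response regulator, was among the 22, with 0 counts at 0% and a bound of 305-fold. Of the 21 features called lower, 2 have a symbol. yjdF_2 was at 14.7, 243 and 1668 CPM at 0% and 38.1, 86.3 and 560 at 1% (log2 fold change -1.73 ± 0.68 SE; edgeR adjusted p = 0.017). The helicase gene recD2_1 was at 137, 321 and 1636 CPM at 0% and 107, 269 and 499 at 1% (log2 fold change -1.19 ± 0.56 SE; edgeR adjusted p = 0.0461). It was not called with RLE factors, nor without any of 6 single libraries (0% replicates 1, 5, 7 and 9, 1% replicates 9 and 10), and yjdF_2 was not called without 0% replicate 1 or 8.

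**Figure D5:**
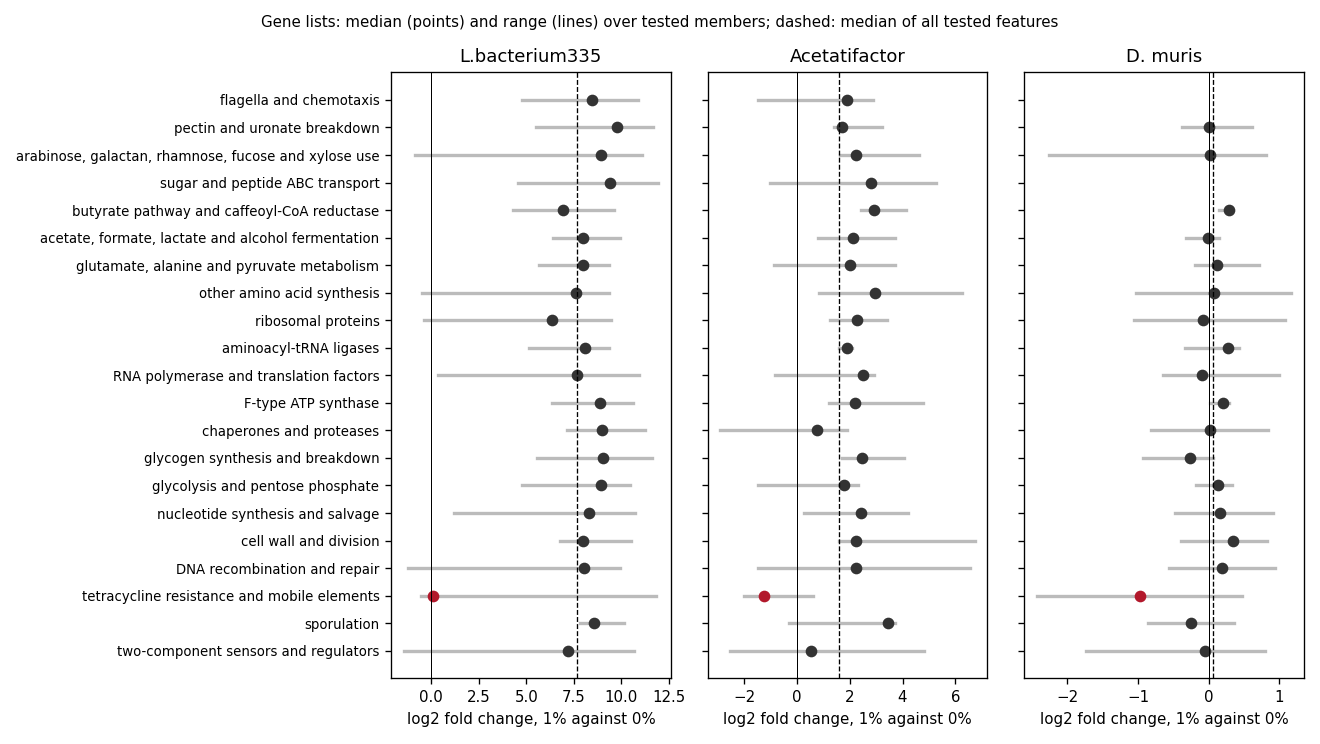
Log2 fold change at 1% against 0% (horizontal axis) of gene lists with at least 4 tested members in both L.bacterium335 and Acetatifactor, also shown for D. muris. Points are medians, lines the range over tested members, and the dashed line the median of all tested features. The mobile element list (red) lies at 0.12, -1.26 and -0.97, to the left of each dashed line.

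In Acetatifactor, most tested genes for translation, sugar uptake, glycogen and butyrate were higher at 1%, and several recombinase genes were lower relative to the rest of the genome. A 0% library had counts on 13 to 288 of the 383 features called higher, with a median of 108, and a 1% library on 335 to 383. Only 18 of the 383 had every 1% library above every 0% library, and 4 of the 141 called lower had every 1% library below. Such features were counted among called features only, with no share over all tested features computed. Genes described below as without overlap are therefore not typical of the calls. agpA, from the sugar transport list, was at 0, 364 and 2352 CPM at 0% and 1429, 5499 and 21592 at 1% (log2 fold change 3.86 ± 0.84 SE; edgeR adjusted p = 0.000457). It was above every 0% library in 8 of 10. dppB_1, for a dipeptide permease, had 5 counts in 3 libraries at 0% and 246 to 2163 CPM at 1%, with no overlap (log2 fold change 5.28 ± 0.90 SE; edgeR adjusted p = 8.87e-05). Of the 10 tested ABC transport genes 8 rose and 1 fell, beside 49.5% of all tested features called higher and 18.2% lower.

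List counts here stand beside 49.5% of all tested features called higher, or 479 of 773 with RLE factors. All 6 tested genes of the butyrate list rose (median 2.92 against 1.58 over all features), among them thlA, for the thiolase that joins 2 acetyl-CoA. It was at 0, 0 and 590 CPM at 0% and 186, 855 and 1085 at 1% (log2 fold change 3.16 ± 0.74 SE; edgeR adjusted p = 0.000764). All 8 glycogen genes rose too (median 2.47). glgB_1, for the branching enzyme, had 3 counts at 0% and was above every 0% library in 10 of 10 at 1%, and glgC_1 rose from a median of 224 CPM to 2389. pflB_1 rose from a median of 299 to 2269 CPM (log2 fold change 2.71 ± 0.69 SE), with 8 of 9 fermentation genes. gap, for glyceraldehyde-3-phosphate dehydrogenase, had counts in every 0% library. It was at 597, 1013 and 3881 CPM at 0% and 2830, 4723 and 7794 at 1% (log2 fold change 1.65 ± 0.42 SE; edgeR adjusted p = 0.00141).

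Genes for translation, transcription and DNA repair were also higher. Beside 49.5% of all tested features called higher, 10 of 12 ribosomal protein genes rose (median 2.29), and rpoC, for RNA polymerase, was at 0, 81.6 and 541 CPM at 0% and 577, 1122 and 1597 at 1%, with no overlap. relA, for the synthesis of the stringent response signal ppGpp, had 8 counts in 3 libraries at 0% and 186 to 1167 CPM at 1%, again with no overlap (log2 fold change 4.04 ± 0.76 SE; edgeR adjusted p = 0.000145). uvrA_1, for excision repair of DNA, had 0 counts at 0% and was counted in 10 of 10 libraries at 1% (at least 13.5-fold higher). spoVG_3, a regulator gene of sporulation, rose from 15 counts in 4 libraries to 311 to 1467 CPM, with 5 of 6 sporulation genes. kduD rose by 3.21 ± 0.80 (log2, SE) with 4 of 5 pectin genes, lacZ, for beta-galactosidase, by 3.77 ± 0.87 with 8 of 9 plant sugar genes, and cheV, for a chemotaxis coupling protein, by 2.87 ± 0.77 with 6 of 9 motility genes (66.7%). baiA, named for a bile acid dehydrogenase, was the 1 tested bile acid gene, at 0, 0 and 323 CPM at 0% and 44.5, 325 and 563 at 1%. Its log2 fold change was 2.25 ± 0.77 (SE; edgeR adjusted p = 0.0112), and it was not called with the genome's total count as a covariate.

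Mobile element genes were among the lower genes of Acetatifactor. Of 11 tested genes for tetracycline resistance and mobile elements, 0 rose and 7 fell, beside 18.2% of all tested features called lower, with a median of -1.26 (1.58 over all features). xerC_13, for a site-specific recombinase, was at 2651, 4265 and 6820 CPM at 0% and 394, 974 and 2358 at 1%, with every 1% library below every 0% library (log2 fold change -1.99 ± 0.43 SE; edgeR adjusted p = 0.00045). blaI_4, for a repressor of beta-lactam resistance, was at 842, 1854 and 2730 CPM at 0% and 101, 383 and 712 at 1%, also with no overlap (log2 fold change -2.11 ± 0.53 SE). cpdA_3, for a cyclic nucleotide phosphodiesterase, fell by 3.14 ± 0.76 (log2, SE) and rcsC_8, for a sensor kinase, by 2.29 ± 0.58. xerD_5 fell by 2.01 ± 0.52. Of 8 tested chaperone and protease genes, 2 rose and 1 fell (median 0.77 against 1.58 over all features). Among proteases, ftsH_3 was at 85.5, 356 and 1299 CPM at 0% and 0, 7.16 and 621 at 1%, where replicate 6 held most of it (log2 fold change -2.90 ± 0.88 SE; edgeR adjusted p = 0.00527). It was not called with RLE factors, nor without 0% replicate 7 or 1% replicate 3 or 7. Two-component genes were split, with 9 of 23 higher and 10 lower. Of the higher, sasA_31, for a histidine kinase, had 2 counts at 0% and 89.0 to 492 CPM at 1%.

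Unscaled, the 141 lower features summed to 16187 to 44434 counts per library at 0% and 13291 to 53350 at 1%, so the 0% range lay inside that at 1%. They held 67.2 to 91.4% of Acetatifactor counts at 0% and 20.9 to 64.9% at 1%. With RLE factors only 8 features were called lower and xerC_13 was at -0.78, blaI_4 at -0.74 and xerD_5 at -0.54, the last 2 no longer called. The mobile element list then had 1 gene higher and 1 lower, with a median of -0.0028 against 3.00 over all features. Leaving out single libraries moved the number of lower features between 60 (without 0% replicate 1) and 147. With the 0% and 1% libraries alone, 10 of the list were tested, 0 rose and 1 fell, with a median of -0.30 beside 0.14 over all features.

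D. muris had few calls, 28 higher and 41 lower. With the genome's total count as a covariate the balance turned, to 20 higher and 13 lower. The median log2 fold change over all tested features was 0.06, and 10.3% of them had one beyond 1 in either direction. Of the 13 genes with a symbol called lower, susC_3, for an outer membrane transporter of plant and host glycans, had the most counts. It was at 2898, 14191 and 19233 CPM at 0% and 1355, 2623 and 10431 at 1% (log2 fold change -1.90 ± 0.32 SE; edgeR adjusted p = 8.8e-05). 6 of 10 libraries at 1% lay below the lowest 0% library, 0% replicate 10, which stood apart from the other 0% libraries. The other 4 tested SusC and SusD genes were not called. glcA, for a glycolate permease, was at 212, 1834 and 2653 CPM at 0% and 58.2, 168 and 784 at 1% (log2 fold change -2.89 ± 0.47 SE; edgeR adjusted p = 7.94e-05).

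Mobile element and resistance genes were again among the falls, with 2 of 7 tested called and a median of -0.97, beside 3.7% of all tested features called lower. tet(Q), for ribosomal protection against tetracycline, was at 2556, 7942 and 15081 CPM at 0% and 711, 2339 and 4372 at 1% (log2 fold change -1.75 ± 0.33 SE; edgeR adjusted p = 0.000399). ltrA_1, for a reverse transcriptase of a mobile intron, was at 530, 1654 and 10494 CPM at 0% and 145, 469 and 902 at 1% (log2 fold change -2.43 ± 0.46 SE; edgeR adjusted p = 0.000394). Of 14 two-component genes 3 fell, with sasA_6 at -1.45 ± 0.30 and rcsC_2 at -1.34 ± 0.29 (log2, SE). rhaS_3, named for a rhamnose regulator, fell by 2.26 ± 0.54, the 1 called gene of 16 for plant sugars, or 6.25%. rhaS_3 and rcsC_2 were not called with the genome's total as a covariate.

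The 9 tested D. muris genes for pectin and uronate breakdown were not called, with fold changes between -0.38 and 0.61 on the log2 scale, and neither were 40 ribosomal protein genes. Of the rises, serC, for serine synthesis, was at 1174, 2075 and 3003 CPM at 0% and 2210, 3067 and 3514 at 1% (log2 fold change 0.53 ± 0.16 SE; edgeR adjusted p = 0.0319). guaA, for GMP synthesis, was at 86.3, 351 and 738 CPM at 0% and 431, 701 and 1302 at 1% (log2 fold change 0.89 ± 0.27 SE; edgeR adjusted p = 0.0369). Neither was called in a fit of the 0% and 1% libraries alone, and single libraries decided both calls. That of serC was lost without 0% replicate 1, 3, 6, 7 or 9 or 1% replicate 5, 7 or 10. That of guaA was lost without 0% replicate 2, 3, 4, 6 or 7 or 1% replicate 1, 5, 7 or 10. Unscaled, the 41 lower features summed to 1871 to 6712 counts per library at 0% and 1823 to 5614 at 1%. With the counts over all 6 tables as the library size, 511 features were higher and 2 lower, with the D. muris share itself higher, and susC_3, tet(Q), rhaS_3, sasA_6 and rcsC_2 were no longer called.

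X. muris had 36 features called higher, 8 lower and 626 not called, and with RLE factors 22 higher and 10 lower. Of the 36, 1 had every 1% library above every 0% library, counted among called features only. ppdK, for pyruvate phosphate dikinase, was at 904, 1511 and 2349 CPM in the 7 libraries at 0% and 2446, 3323 and 4425 in the 10 at 1%, with no overlap (log2 fold change 1.03 ± 0.34 SE; edgeR adjusted p = 0.0417). It was not called with RLE factors (0.73), nor without 0% replicate 1, 2, 3, 6 or 9 or 1% replicate 3, 4, 5, 6, 8 or 9. uxaC was at 0, 0 and 333 CPM at 0% and 62.7, 452 and 800 at 1% (log2 fold change 2.39 ± 0.61 SE; edgeR adjusted p = 0.00452), and was the 1 called gene of 3 for pectin and uronate breakdown. rnr, for ribonuclease R, was at 0, 113 and 244 CPM at 0% and 214, 488 and 964 at 1% (log2 fold change 2.18 ± 0.55 SE). CPM in this table are stretched, since most counts lie on 1 feature and the scaling is set by the rest.

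Most X. muris calls had no symbol, and the files do not pair those identifiers with gene names. Of 38 such calls, 12 lay in 2 stretches of neighbouring locus numbers. Of the 8 features numbered from HPS56_RS06445 to HPS56_RS06480, 7 were called higher, with log2 fold changes over the 8 of 1.32 to 4.58. Another 5 with neighbouring numbers, up to HPS56_RS05300, were all called lower, with log2 fold changes of -2.65 to -1.14. Positions on the genome were not used here. These stretches were picked after the values were seen.

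F. rodentium, the genome with most counts, had few features called at 1%. Against the same 0% libraries, 143 of its features (8.47%) were called at 0.5% and 159 (9.41%) at 2.5%. The few calls at 1% thus do not show that its expression was unchanged. At 1%, 3.26% of its tested features had a log2 fold change beyond 1, and of 31 lists with a tested member 30 had no call. Its 45 ribosomal protein genes lay between -0.55 and 0.20 on the log2 scale, and its 24 genes for beta-glucosides, plant sugars joined through a beta bond, between -0.51 and 1.05. The exception was recD, for a subunit of exonuclease V. It had 0 counts among the 6582564 counts of the 0% libraries and 134 among the 4316172 of the 1% libraries, at least 67.8-fold higher (edgeR adjusted p = 7.92e-06). In 1% replicates 1 to 10 it had 0, 16, 6, 0, 0, 16, 0, 47, 12 and 37 counts. The libraries at 0 were replicates 1, 4, 5 and 7, which had the fewest F. rodentium counts of the 1% diet, 26963 to 109341. At 0.5% it was counted in 10 of 10 libraries, with 447 counts, and at 2.5% in 7 of 8 with the minimum depth, with 210. In a fit of the 0% and 1% libraries alone, 0 of 40 tested genes of its list, DNA recombination and repair, were called. The recD call therefore rests on the fit that also held the other doses. Another 2 called features without a symbol also had no count at 0%, and both were counted in 10 of 10 libraries at 0.5%. The 1 other called gene with a symbol, hemE, for a step of heme synthesis, is named here after its values were seen: it had 89 counts at 0% and 172 at 1% (log2 fold change 2.03).

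Within the 1% diet, F. rodentium genes were also set against the F. rodentium share of the library, with edgeR's test of a slope. Of 818 tested, 7 rose and 13 fell with the share (0.856% and 1.59%, 2.44% in all). Branched-chain amino acid synthesis had 3 of 8 genes rising, ilvC, ilvD and ilvI. ilvC, for ketol-acid reductoisomerase, ran from 165 to 2171 CPM over the 10 libraries and rose by 0.25 ± 0.06 log2 units per 10 percentage points of share (SE; edgeR adjusted p = 0.0471). dacA, at 65.9 to 647 CPM, rose by 0.26 ± 0.06 (edgeR adjusted p = 0.0261). In the other direction, cutC_3, at 173 to 1391 CPM, had a slope of -0.32 ± 0.06 (edgeR adjusted p = 0.0173), and deoC, for deoxyribose-phosphate aldolase, at 210 to 2799 CPM, of -0.30 ± 0.07 (edgeR adjusted p = 0.0261). At 0% the 4 genes ran from 221 to 2570, 305 to 560, 105 to 295 and 152 to 557 CPM.

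These slopes rest on few libraries. None was called without 1% replicate 5, the library with the lowest share, and none without the 2 libraries farthest from the median. The share also moved with the number of F. rodentium counts (Pearson r = 0.96, adjusted permutation p = 0.00084; Spearman rho = 0.96, adjusted permutation p = 0.00077, n = 10). The share is computed from that number, so a positive relation is built in and these p-values are no test of it. With that number as a covariate none of the 20 was called and the ilvC slope was -0.14. Slopes in the other genomes were called for 0 of 189 features in Acetatifactor, 0 of 484 in D. muris and 0 of 84 in X. muris. In L.bacterium335, 2 of 194 (1.03%) were called, of which rutB, for uracil breakdown, has a symbol.

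Against its neighbouring doses, 1% differed in few genes. In direct contrasts with 0.5%, 0 features were higher and 2 lower in L.bacterium335 (0.145%), 0 and 2 in Acetatifactor (0.259%), 1 and 4 in F. rodentium (0.0592% and 0.237%, 0.296% in all), and 0 in D. muris and X. muris (53 and 40 at an unadjusted p under 0.05). At 2.5% against 1%, 2 features were higher and 114 lower in L.bacterium335 (0.145% and 8.24%, 8.38% in all), 10 and 3 in F. rodentium (0.592% and 0.178%, 0.77% in all), 1 and 8 in X. muris (0.149% and 1.19%, 1.34% in all), 0 and 3 in D. muris (0.271%), and 0 in Acetatifactor (44 at an unadjusted p under 0.05). The contrasts of 0.5%, 1% and 2.5% with the plain diet share the same 0% libraries, so values shared between them are no independent support. In them mglB_1 of L.bacterium335 had log2 fold changes of 9.39, 9.74 and 9.27, and susC_3 of D. muris of -1.78, -1.90 and -2.81.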

How the data were processed

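RNA of cecal contents was counted on 6 bacterial genomes in 20 libraries, 1 library per sample. The authors deposited raw counts per feature in 1 table per genome. For the aligner, counter, genome builds, strand setting and reads that match several features, nothing is given in the sources used here, so near-identical and overlapping features are uncertain. Per the labels' protocols, ribosomal RNA was depleted before KAPA RNA HyperPrep libraries were made. The diets and gene lists were chosen with earlier results of these data known. From the counts, shares over the 6 tables were compared by two-sided permutation tests with 100000 resamples (numpy 2.4.6, scipy 1.17.1), whose smallest p is 1e-05. Genes were tested per genome with edgeR 4.0.16 in R 4.3.3 (TMM, filterByExpr, quasi-likelihood), with all 4 diets sharing the spread, Benjamini-Hochberg adjustment and a threshold of 0.05. 5 stable RNA features of X. muris were left out. DESeq2 1.42.0 served as an alternative. The scripts were tested on simulated data. Named genes are at most 4 with a symbol per direction and genome by size of change, at most 2 per list, and at most 2 slopes each way, of which a part is described. No pair of the 90 pairs of libraries within a diet held identical counts.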

Additional observations from a re-analysis of the deposited data

Results flagged for a closer look

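Of 142 groups of values examined, 22 held a library far from the other libraries of its diet by Dixon's criterion, which chance meets in about 1 of 20 groups. D. muris took 11.65% of counts in 0% replicate 4, and the next highest library 4.995%.

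In L.bacterium335, 7 were single 0% libraries with a gene otherwise low there. kduD_1 stood at 19.97 CPM in replicate 1, fliS and dnaK at 11.05 CPM each in replicate 5 and mraZ at 10.51 CPM in replicate 4, with 0 in all other 0% libraries. fliD stood at 82.4 CPM in replicate 8 (next 31.54), pflB_1 at 659.2 in the same replicate (next 201.4) and pckA at 574.8 in replicate 5 (next 214.5). All 7 lay below the lowest 1% library, except for fliS, which 1 library at 1% had at 0. At 1%, yjdF_2 reached 559.5 CPM in replicate 10 (next 284.8) and spoIVA 593.8 in replicate 4 (next 294.5).

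In Acetatifactor at 0%, agpA stood at 2352 CPM (next 1106) and dppB_1 at 128.3 (next 46.09) in replicate 3, thlA at 589.9 (next 155.2) in replicate 8, and relA at 184.4 (next 98.32) and cheV at 184.4 (next 77.62) in replicate 9. sasA_31 stood at 77.62 CPM in replicate 1, with 0 in the others. At 1%, replicate 6 was highest for 3 genes that fell: cpdA_3 at 403.9 CPM (next 177.1), rcsC_8 at 1119 (next 533.9) and ftsH_3 at 621.4 (next 28.76).

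In D. muris at 0%, susC_3 was low in replicate 10, at 2898 CPM (next 11010), and rcsC_2 high in replicate 9, at 14760 (next 8985). In F. rodentium, deoC reached 2799 CPM in 1% replicate 5 (next 1479), the library with the lowest F. rodentium share.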

How the results depend on the processing

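No paired analysis was possible because the replicate numbers were given in accession order and pair no libraries. Shares as centred log-ratios gave differences of -0.147 for Acetatifactor (the sign reversed), 0.323 for D. muris and 0.247 for X. muris (neither called) and -2.10 for F. rodentium (called). With the 5 most counted features left out, which were chosen from the 0% libraries alone, Acetatifactor (6.90 points), F. rodentium (-35.1) and L.bacterium335 (20.6) were called. The F. rodentium difference was also called without libraries 76 to 81 (-30.4) and when adjusted over 6 comparisons (-26.7), and ran from -31.0 to -22.0 with single libraries left out. On a logit scale the differences in spread were 0.317 for Alistipes (not called), -0.137 for D. muris and -0.00923 for X. muris (both reversed). With single libraries left out they ran from 0.0578 to 0.108 for Alistipes, 10.7 to 17.7 for F. rodentium and 5.95 to 11.7 for L.bacterium335, the last 2 called without 0% replicate 2. The F. rodentium concentration differed by 1.83 points over 10 features (called), and by 0.834 to 1.61 with single libraries left out.

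Calls numbered 1852 in Acetatifactor, 19 in F. rodentium and 2770 in L.bacterium335 with no filter on low counts. With 0% and 1% libraries alone they were 117, 5 and 107, and 19 in X. muris. With the genome's total as a covariate they were 274 in Acetatifactor, 33 in D. muris and 2 in F. rodentium. With the 5 most counted features left out they were 255 in Acetatifactor and 651 in L.bacterium335. With counts over the 6 tables as library size, chosen after seeing the data, they were 513 in D. muris, 4 in F. rodentium and 587 in X. muris. DESeq2 called 22 in F. rodentium. Leaving out single libraries gave 4 to 9 in F. rodentium and 30 to 68 in X. muris. Slopes called numbered 1 in Acetatifactor and 0 in F. rodentium and L.bacterium335 with the genome's total as a covariate, 0 in F. rodentium and 1 in L.bacterium335 without the 2 farthest libraries, and 0 in L.bacterium335 on a logit scale. With single libraries left out F. rodentium had 0 to 79, L.bacterium335 0 to 41, Acetatifactor 0 to 4 and D. muris 0 to 2. The ilvC slope was -0.137 with the genome's total as a covariate (reversed). Where fewer features passed the filter, fewer could be called. For the other changes the cause was not tested. Of 57 named genes with a fold change, 0 reversed and 17 lost their call in at least 1 alternative. An alternative in which a gene did not pass the filter was not counted for that gene. A gene could thus keep its call without being tested in each. With the 0% and 1% libraries alone, 258 L.bacterium335 features were tested, against 1384 in the main fit. F. rodentium features detected differed by 1.31 (reversed, not called) with the 5 most counted left out and the rest thinned to 5000 counts, chosen after seeing the data. Depth limits Alistipes throughout and L.bacterium335 genes at 0%, where 0 counts are no proof of absence.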
